A study of Mus musculus with 8 samples.

Results

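A set of 9 genes that control chloride transport and cell volume was followed in hearts with and without the chloride/bicarbonate exchanger AE3. They are the SLC12 cotransporters Slc12a2, Slc12a4 and Slc12a7, the kinases Wnk1, Stk39 and Oxsr1 that regulate these cotransporters, and the chloride channel or exchanger genes Clcn2, Clcn3 and Lrrc8a. The members were listed by name and function, with earlier results of these data known. All 9 of 9 were found by Entrez number among the 23282 genes of the counts table, and all 9 passed the filter on low counts. RNA-seq had been run on the whole hearts of FVB/N mice, all male and 4 months old. One group was wild type, and the other was AE3-null and lacked normal Slc4a3, the AE3 gene. Each group had 4 libraries, named here by genotype and replicate number. How the null allele was made and whether the mice were littermates is not given in the sources used here. The labels do not tie libraries to animals beyond the stated number of mice, so p-values measure the spread between libraries, which may be technical.

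Cation-chloride cotransporters move chloride across the membrane together with sodium and potassium, or with potassium alone. NKCC1, encoded by Slc12a2, brings chloride into the cell, and the KCC family, which includes Slc12a4 (KCC1) and Slc12a7 (KCC4), lets chloride and potassium out. WNK kinases respond to chloride and osmotic strength and phosphorylate the kinases SPAK (Stk39) and OSR1 (Oxsr1). These in turn switch NKCC1 on and the KCCs off by phosphorylation. AE3 also brings chloride into the heart muscle cell, in exchange for bicarbonate, so AE3 and NKCC1 are separate routes of chloride entry. The comparison therefore asked whether transcripts of the remaining chloride transport system differ in hearts without AE3.

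Total counts ranged from 9133628 to 27078351 per library. Slc4a3 lay between 378 and 389 CPM (counts relative to a fixed total per library) in wild-type libraries and between 31.5 and 34.6 CPM in AE3-null libraries, so each library matched its label. Heart muscle markers (Myh6, Tnnt2, Tnni3, Actc1, Myl2, Ryr2) summed to 75140 to 82000 CPM in wild-type and 74770 to 81140 CPM in AE3-null libraries. Of these 6 genes, 1 was higher in AE3-null hearts at an edgeR adjusted p under 0.05. In a principal component analysis of all tested genes, wild-type replicate 3 was separate on component 2, at -22.6 against -1.48 to 8.89 for the other libraries.

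None of the 9 members was called in AE3-null against wild-type hearts. A gene was called when its Benjamini-Hochberg adjusted p in edgeR's quasi-likelihood test, adjusted over all 14136 tested genes, was under 0.05. Of all tested genes 6.47% were called, 3.16% higher and 3.31% lower, so a count of 0 among 9 genes is near that background. DESeq2 and limma voom also called 0 members, with 6.82% and 6.23% of all genes called. At an unadjusted p under 0.05, edgeR, DESeq2 and limma voom each had 1 member, which for edgeR was Slc12a2. Of all 14136 tested genes, 2974 (21.0%) were under that value in edgeR, 2433 in DESeq2 and 3140 in limma voom. No member had genotypes whose ranges did not overlap, against 12.2% of all tested genes. The members' log2 fold changes ran from -0.13 to 0.14, with 5 above and 4 below 0 and a median of 0.026. Over all tested genes the median was -0.0018, and 32.7% of genes had a change larger in size than that of any member. The 95% intervals of all 9 members lay within 0.5 of 0 on the log2 scale. Without wild-type replicate 3, 0 members were called while 12.1% of all genes were. The members' log2 fold changes were then -0.11 for Slc12a2, 0.08 for Slc12a4, -0.11 for Slc12a7, -0.08 for Wnk1, 0.10 for Stk39, 0.03 for Oxsr1, 0.20 for Clcn2, 0.07 for Clcn3 and -0.20 for Lrrc8a (edgeR adjusted p 0.135 for Slc12a7, the smallest of them).

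Levels of different genes were compared only per length, as CPM per kilobase of the joined exons of protein-coding transcripts. In wild-type hearts Wnk1 had the highest level, 83.8 ± 5.79 CPM per kilobase (SD, n = 4). Slc12a7 followed at 73.4 ± 3.87 CPM per kilobase, and by this length the wild-type libraries of these genes overlapped. Stk39 lay at 32.1 ± 2.48, Slc12a4 at 25.4 ± 0.386 and Oxsr1 at 20.9 to 21.8 CPM per kilobase, with no overlap among these genes in wild-type libraries. Lrrc8a, at 21.4 ± 3.35 CPM per kilobase, overlapped both Slc12a4 and Oxsr1. An annotated gene on the same strand shares 66.2% of the exon bases of Lrrc8a. How reads there were counted is not known, so the level of Lrrc8a is uncertain. Slc12a2, at 10.7 ± 0.745, and Clcn3, at 9.34 to 10.6 CPM per kilobase, also overlapped. Clcn2 was the lowest, at 1.70 to 2.03 CPM per kilobase. In AE3-null hearts the first 6 genes kept this order, with Wnk1 at 81.4 ± 2.54 and Slc12a7 at 68.9 ± 3.99 CPM per kilobase, while Clcn3, at 10.4 ± 0.655, and Slc12a2, at 9.80 ± 0.241, changed places and overlapped. Another length, that of the longest transcript, was chosen after the data were seen. By it, wild-type Clcn3 lay at 11.4 and Slc12a2 at 10.7 CPM per kilobase, so that pair has no fixed order. Wild-type Wnk1 (83.0 to 97.9) and Slc12a7 (69.8 to 78.4 CPM per kilobase) did not overlap by the longest transcript. In AE3-null libraries Wnk1 and Slc12a7 did not overlap by either length.

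**Figure D1:**
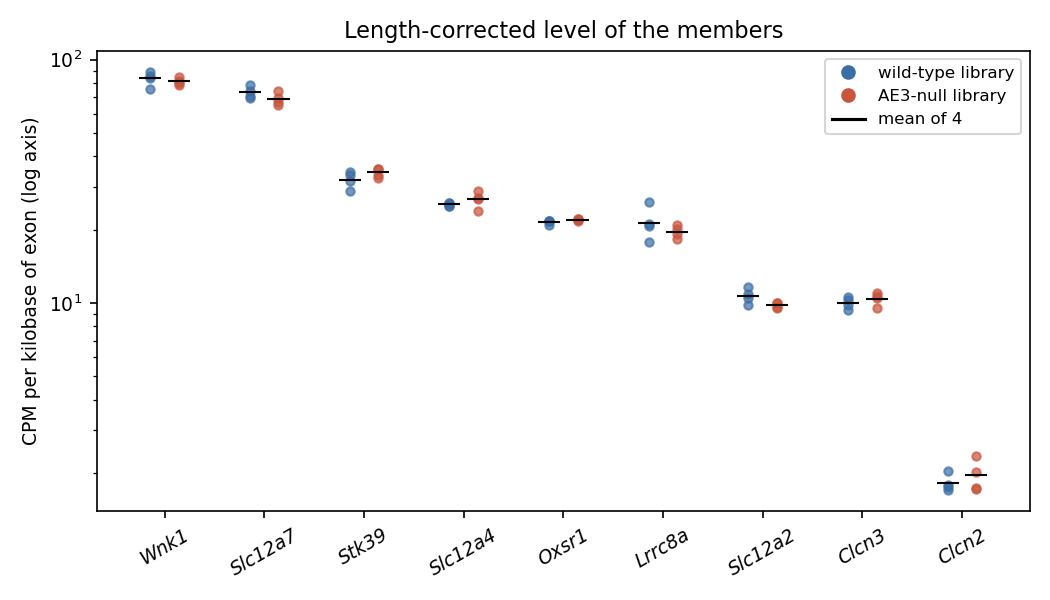
Level of each member in each library, as CPM per kilobase of exon on a log axis, with 4 wild-type and 4 AE3-null libraries and the mean of each genotype as a line. Wnk1 and Slc12a7 were near the top in both genotypes, and Clcn2 lay far below the other members.

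The members' relatives place these levels in their families. Among the KCC genes, Slc12a7 (73.4 CPM per kilobase in wild-type hearts) and Slc12a4 (25.4) exceeded Slc12a5 (KCC2, the cotransporter of neurons), at 0.605 ± 0.0498 CPM per kilobase (SD, n = 4). The kidney cotransporter gene Slc12a1 (NKCC2) had 0 counts in all 8 libraries, which allows a level of up to 0.110 to 0.323 CPM depending on the library. That limit covers counting error only. Wnk2 lay at 16.7 ± 0.809 and Wnk4 at 4.71 ± 0.587 CPM per kilobase, below Wnk1. LRRC8A is the obligatory subunit of the volume-regulated anion channel and combines with other LRRC8 proteins. Lrrc8a, whose level is uncertain because of its shared exon bases, exceeded its partner genes. These were Lrrc8c (3.82 ± 0.266), Lrrc8d (2.77 ± 0.0659), Lrrc8b (1.28 ± 0.0587) and Lrrc8e (0.143 ± 0.0486 CPM per kilobase, SD, n = 4).

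Start sites of the members were compared in RefSeq promoter sequences of mouse build GRCm38.p6, which held 8 of the 9 members and not Slc12a2. The 250 bases before the start site were searched on both strands. A GC box (GGGCGG) occurred in all 8 members, against 35.4% of the 27025 genes in the table. This share and those below cover every gene of that table, whether or not it passed the filter on low counts. All members passed that filter. The shares among tested genes, or among promoters of like GC content, were not taken, so no motif is shown to be particular to the members. The number of GC boxes ran from 1 to 6 per member, and the GC content of these 250 bases from 60.8% to 82.4%, against a median of 52.4% over 32851 promoters. No member held a TATA box (TATAAA, 14.3% of genes). A CCAAT box (CCAAT) occurred in 2 members (37.5% of genes) and an E-box (CACGTG) in 2 (6.86%). The stretches of 60 bases with the most GC boxes in the 3 members with the highest levels are shown 5′ to 3′ in the direction of the gene, to make the shared element visible, with GC boxes of either strand in capitals. They come from chr6:120038686-120038745 on the minus strand (Wnk1), chr13:73763637-73763696 on the plus strand (Slc12a7) and chr2:68472169-68472228 on the minus strand (Stk39).
Wnk1: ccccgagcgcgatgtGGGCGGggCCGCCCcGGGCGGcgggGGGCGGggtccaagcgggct
Slc12a7: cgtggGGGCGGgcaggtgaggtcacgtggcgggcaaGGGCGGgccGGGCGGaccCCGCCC
Stk39: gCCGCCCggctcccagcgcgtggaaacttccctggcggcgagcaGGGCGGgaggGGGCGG

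A cAMP response element (TGACGTCA) stood before the start sites of Lrrc8a and Oxsr1, 2 of 8 members, against 1.77% of genes. These matches describe the letters of the window and were sought after the sequences had been seen. The stretches are at chr2:30237635-30237694 on the plus strand (Lrrc8a) and chr9:119322428-119322470 on the minus strand (Oxsr1), with the element in capitals. It ends 100 bases before the start site of Lrrc8a and 9 bases before that of Oxsr1.
Lrrc8a: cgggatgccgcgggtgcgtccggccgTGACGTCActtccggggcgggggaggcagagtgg
Oxsr1: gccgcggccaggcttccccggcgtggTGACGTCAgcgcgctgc

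Among the cotransporters, Slc12a2 (Entrez 20496), which encodes NKCC1, had the smallest p of the members. It lay at 68.1, 63.9, 71.0 and 75.5 CPM in wild-type replicates 1 to 4 and at 65.2, 62.3, 65.3 and 62.9 CPM in AE3-null replicates 1 to 4. The AE3-null libraries were tightly grouped at the low end of the wild-type range, 2 of 4 lay below every wild-type library, and wild-type replicate 2 fell among them. The means were 69.6 ± 4.86 and 63.9 ± 1.57 CPM (SD, n = 4), with a log2 fold change of -0.12 (SE 0.050, edgeR p 0.0254, adjusted p 0.163). The interval of that one gene, not adjusted for the number of genes, ran from 14.7% to 1.18% lower. Without wild-type replicate 2 the value was -0.16 (adjusted p 0.0731), and without wild-type replicate 4 it was -0.08.

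Slc12a7 (Entrez 20499), which encodes the potassium and chloride exporter KCC4, lay at 365, 403, 358.9 and 383 CPM in wild-type and 334, 343, 381 and 358.5 CPM in AE3-null replicates 1 to 4. Of the AE3-null libraries 3 lay below every wild-type library, replicate 4 only barely, and replicate 3 lay inside the wild-type range. It differed by a log2 fold change of -0.09 (SE 0.046, adjusted p 0.270, edgeR), with an interval of -0.19 to 0.01. Slc12a4 (Entrez 20498), which encodes the widely expressed KCC1, lay at 96.3, 96.5, 98.6 and 99.3 CPM in wild-type and 103, 91.9, 103 and 111 CPM in AE3-null replicates 1 to 4. The wild-type libraries were close together, whereas AE3-null libraries lay on both sides of them, 3 above and 1 below. Slc12a4 differed by log2 0.07 (SE 0.048, edgeR adjusted p 0.431), 0.03 without AE3-null replicate 4 and 0.12 without AE3-null replicate 2. An annotated antisense gene shares 9.40% of its exon bases, and no strand setting is given in the sources used here.

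**Figure D2:**
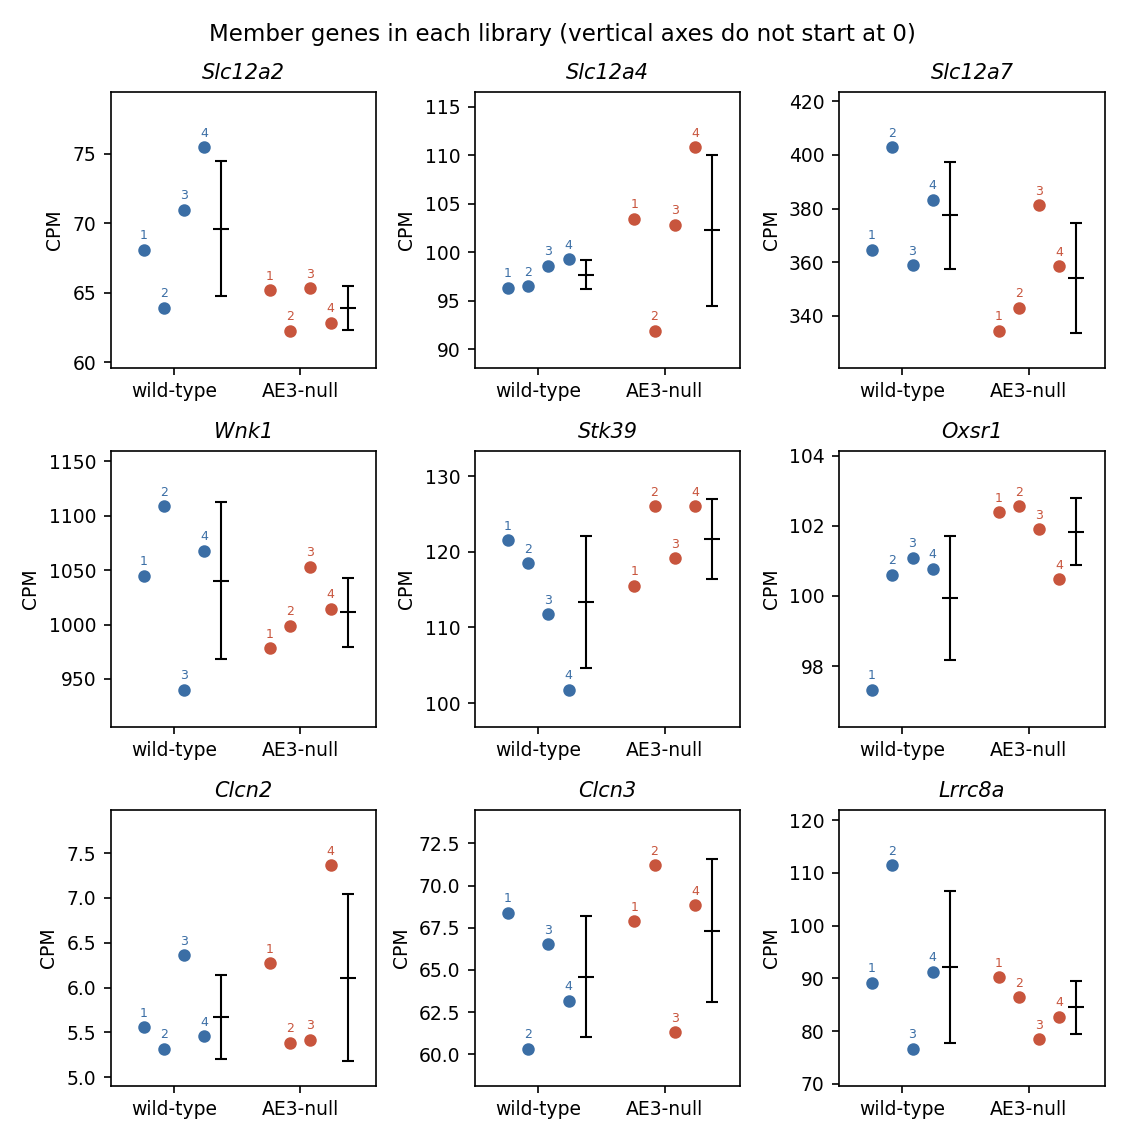
CPM of each member in each library, with the replicate number above each point and the mean ± SD of 4 libraries as a bar; vertical axes differ between genes and do not start at 0. The genotypes overlapped for all 9 members, with Slc12a2 the member of smallest p and Oxsr1 the one with the narrowest range relative to its level.

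The kinase genes also overlapped between genotypes. Wnk1 (Entrez 232341), the chloride-sensing kinase at the head of the cascade, lay at 1045, 1109, 940.0 and 1068 CPM in wild-type and 978, 999, 1053 and 1014 CPM in AE3-null replicates 1 to 4. Every AE3-null library lay inside the wild-type range, whose lowest value was that of wild-type replicate 3. Wnk1 differed by a log2 fold change of -0.04 (SE 0.045, edgeR adjusted p 0.661), -0.08 without wild-type replicate 3 (adjusted p 0.146) and -0.01 without wild-type replicate 2. Stk39 (Entrez 53416), which encodes SPAK, lay at 122, 118, 112 and 102 CPM in wild-type and 116, 126, 119 and 126 CPM in AE3-null replicates 1 to 4. AE3-null replicates 2 and 4 exceeded every wild-type library, and the other two lay within the wild-type range. Stk39 differed by log2 0.10 (SE 0.052, edgeR adjusted p 0.277), with an interval of -0.01 to 0.21, and 0.05 without wild-type replicate 4.

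Oxsr1 (Entrez 108737), which encodes OSR1, the close relative of SPAK, had the narrowest range over all libraries relative to its level. Its spread was below counting error in both genotypes, so the evenness is not shown to be a trait of the gene. It lay at 97.3, 100.6, 101.1 and 100.8 CPM in wild-type and 102.4, 102.6, 101.9 and 100.5 CPM in AE3-null replicates 1 to 4. Of the AE3-null libraries 3 exceeded every wild-type library, and replicate 4 lay within the wild-type range. The interval of its log2 fold change of 0.03 (SE 0.035, edgeR adjusted p 0.736) ran from -0.05 to 0.10, from 3.30% lower to 7.28% higher, the narrowest of the members. The count of Stk39 per count of Oxsr1 averaged 1.13 ± 0.102 over wild-type and 1.20 ± 0.0571 over AE3-null libraries (SD, n = 4). The ranges overlapped. This ratio is not corrected for length, so it compares the genotypes and not the levels of these genes. Per kilobase, wild-type means were 32.1 CPM for Stk39 and 21.5 CPM for Oxsr1.

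Among the chloride channel and exchanger genes, Clcn2 and Lrrc8a had the widest intervals of all members. The log2 interval of Clcn3, -0.06 to 0.17, was about as wide as that of Stk39, -0.01 to 0.21. Lrrc8a (Entrez 241296), the subunit of the volume-regulated anion channel, lay at 89.2, 111, 76.6 and 91.3 CPM in wild-type and 90.3, 86.4, 78.5 and 82.8 CPM in AE3-null replicates 1 to 4. All AE3-null libraries lay inside the wild-type range, which was set by wild-type replicates 2 and 3. Lrrc8a differed by log2 -0.13 (SE 0.107, edgeR adjusted p 0.568), -0.02 without wild-type replicate 2 and -0.20 without wild-type replicate 3 (adjusted p 0.155). An annotated gene on the same strand, Gm28035, shares 66.2% of the exon bases of Lrrc8a in GENCODE M21, and how reads in the shared bases were counted is not known.

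Clcn3 (Entrez 12725), which encodes a chloride/proton exchanger of intracellular membranes, lay at 68.4, 60.3, 66.5 and 63.2 CPM in wild-type and 67.9, 71.2, 61.3 and 68.8 CPM in AE3-null replicates 1 to 4. AE3-null replicates 2 and 4 exceeded every wild-type library, and replicates 1 and 3 lay within the wild-type range. Clcn3 had a log2 fold change of 0.06 (SE 0.053, edgeR adjusted p 0.594), 0.03 without wild-type replicate 2 and 0.10 without AE3-null replicate 3. Clcn2 (Entrez 12724), which encodes a chloride channel of the cell membrane, was low, at 5.56, 5.32, 6.36 and 5.46 CPM in wild-type and 6.28, 5.39, 5.42 and 7.37 CPM in AE3-null replicates 1 to 4. These levels came from 50 to 200 counts per library, and AE3-null replicate 4 alone exceeded the wild-type range. Clcn2 had a log2 fold change of 0.14 (SE 0.12, edgeR adjusted p 0.552) and the widest reach above 0 among the members, with an interval from 7.66% lower to 31.5% higher. Without AE3-null replicate 4 the value was 0.02, and without AE3-null replicate 3 it was 0.20.

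**Figure D3:**
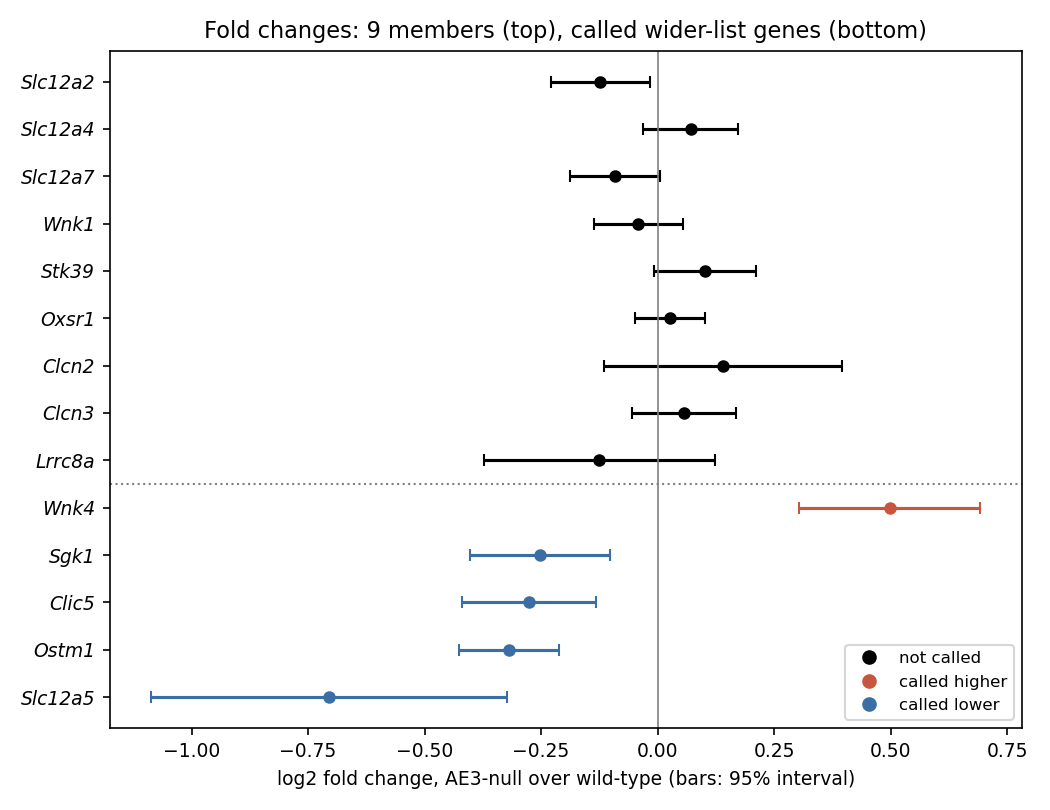
Log2 fold change of AE3-null over wild-type hearts with its 95% interval from edgeR, for the 9 members above the dotted line and for the 5 called genes of the wider chloride list below it. All 9 members lie between -0.13 and 0.14. Below the line, Wnk4 lies at 0.50, Sgk1 at -0.25, Clic5 at -0.28, Ostm1 at -0.32 and Slc12a5 at -0.70. These 5 are shown because they were called, so their larger changes can follow from that choice. With the sign left out, the median log2 change was 0.091 for the members and 0.101 for all 39 tested genes of the wider list. For all tested genes it was 0.088.

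The spread between libraries of one genotype differed among members. For Oxsr1 the coefficient of variation was 1.77% (wild-type) and 0.930% (AE3-null), below the 2.50% and 2.43% that counting alone gives at these depths. Wnk1 varied by 6.92% in wild-type libraries against 0.773% from counting, and Lrrc8a by 15.6% against 2.60%. In AE3-null libraries Wnk1 varied by 3.12% and Lrrc8a by 5.96%. The wild-type spread of Slc12a4, 1.52%, was under its counting error of 2.52%, while its AE3-null spread of 7.63% exceeded the 2.38% from counting. For Clcn2 counting gave 10.5% in wild-type libraries, more than the observed 8.28%, and in AE3-null libraries 9.68% against an observed 15.2%.

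Deviations of log2 CPM from the genotype mean were set against each other over the 8 libraries for the 36 pairs of members. These values share library and depth and are given as a description. Slc12a7 and Wnk1 deviated together (Pearson r 0.824), as did Slc12a4 and Clcn2 (0.741). Slc12a2 and Stk39 deviated in opposite directions (-0.867), as did Slc12a7 and Clcn3 (-0.864). These pairs were picked as the highest and lowest of the 36, so a large r can follow from that choice. The median over pairs was -0.105, with 17 of 36 pairs above 0. By the rule for likeness, the tested genes whose log2 CPM followed Slc12a2 most closely over the 8 libraries were Fkbp15 (r 0.970), Mkrn1 (r 0.945) and Naif1 (r 0.941). None of these 3 was called, with log2 fold changes of -0.09, -0.08 and -0.17 (edgeR adjusted p 0.334, 0.437 and 0.478). They were the highest of all tested genes by an r that includes the genotype difference. For deviations within genotype, r was 0.950, 0.937 and 0.931 for these genes, picked by the first r. A high r and fold changes like that of Slc12a2 can therefore follow from the choice alone.

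**Figure D4:**
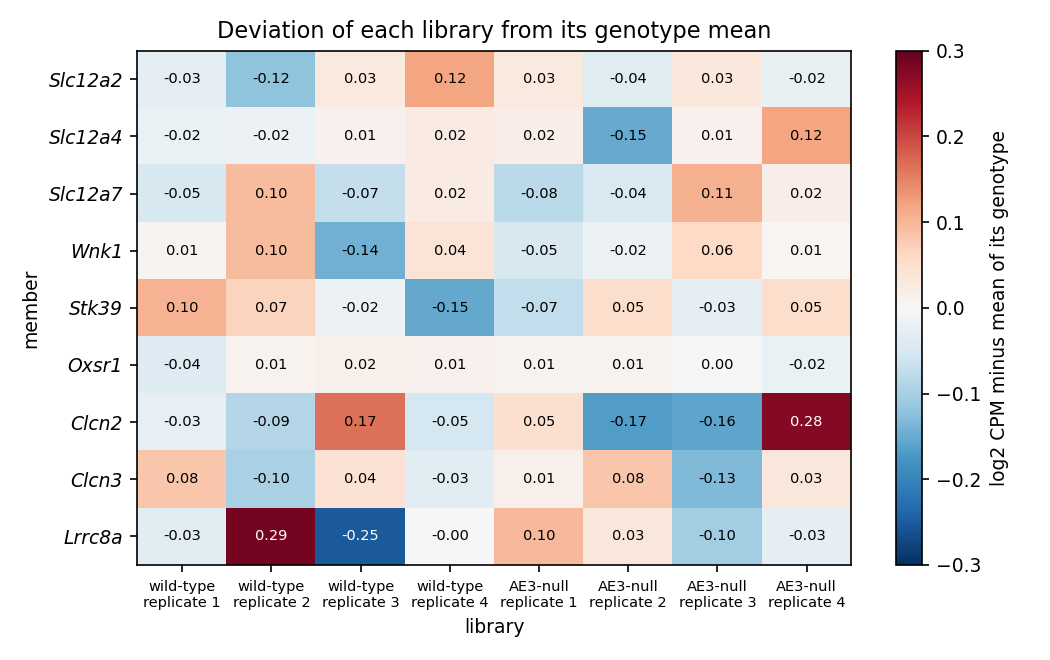
Log2 CPM of each member in each library minus the mean of its genotype, in colour and as a number. The row of Oxsr1 stays between -0.04 and 0.02, and the row of Lrrc8a reaches 0.29 in wild-type replicate 2 and -0.25 in wild-type replicate 3.

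Beyond the members, 51 names of a wider chloride list were looked up, 47 were found in the table and 39 were tested. They cover other SLC12 cotransporters, regulators of the WNK cascade, CLC proteins, LRRC8 subunits, other chloride channels and an osmotic regulator. Of the 39, 1 was called higher and 4 lower (12.8%, against 6.47% of all tested genes). The median log2 fold change was -0.011, against -0.0018 over all tested genes. Without wild-type replicate 3 the list had 8 calls, 2 higher and 6 lower, and 12.1% of all genes were then called. Without wild-type replicate 2 or 4 or AE3-null replicate 1 it had 2 calls each, where 610, 431 and 581 of all genes were called against 915 with all libraries. Without wild-type replicate 1 or AE3-null replicate 3 or 4 it had 3 each, where 658, 569 and 407 of all genes were called. Wnk4 and Ostm1 were called in all 16 alternative fits, and the other 3 calls were each lost in some.

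Among the cascade's regulators, the kinase gene Wnk4 (Entrez 69847), whose product acts on SPAK and OSR1 as WNK1 does, was higher in AE3-null hearts. It lay at 18.7, 18.0, 23.0 and 17.9 CPM in wild-type and 28.6, 22.5, 27.3 and 29.2 CPM in AE3-null replicates 1 to 4. Only wild-type replicate 3 reached into the AE3-null range. The means were 19.4 ± 2.42 and 26.9 ± 3.05 CPM (SD, n = 4), with a log2 fold change of 0.50 (SE 0.091, edgeR adjusted p 0.00570), and 0.59 without wild-type replicate 3. Of its exon bases 7.43% are shared with an annotated antisense gene. Sgk1 (Entrez 20393), a hormone- and stress-induced kinase that regulates ion transporters, lay at 66.9, 77.6, 68.8 and 74.1 CPM in wild-type and 58.1, 66.3, 65.2 and 53.3 CPM in AE3-null replicates 1 to 4. The genotypes were separate by a narrow gap, and Sgk1 fell by 0.25 on the log2 scale (SE 0.070, edgeR adjusted p 0.0484). Its adjusted p was 0.113 without wild-type replicate 2, 0.149 without wild-type replicate 4, 0.139 without AE3-null replicate 1 and 0.119 without AE3-null replicate 4. It was 0.0507 with RLE size factors and 0.0692 with total counts only. The other 7 tested regulators, among them Wnk2 (log2 0.06) and Cab39 (log2 -0.05), which encodes a SPAK and OSR1 activator, were not called.

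Among the other cotransporters, Slc12a5 (Entrez 57138) lay at 4.02, 4.02, 3.41 and 3.58 CPM in wild-type and 1.68, 2.05, 2.11 and 3.13 CPM in AE3-null replicates 1 to 4. All AE3-null libraries were below all wild-type libraries, although the level was low in both, from 19 to 85 counts per library. Slc12a5 fell by 0.70 on the log2 scale (SE 0.180, edgeR adjusted p 0.0270). Its adjusted p was 0.0740, 0.0669 and 0.0667 without wild-type replicate 1, 2 or 4 and 0.0984, 0.0639 and 0.0782 without AE3-null replicate 1, 2 or 3. The 5 Schwann cell and neuron markers summed to 10.6 to 13.1 CPM in wild-type and 15.0 to 16.2 CPM in AE3-null libraries. Only 3 of them passed the filter on low counts, and 1 was called higher. Of the channel genes, Best3 and Clcn1 were called without wild-type replicate 3.

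Ostm1 (Entrez 14628), the partner subunit of the lysosomal chloride/proton exchanger encoded by Clcn7, lay at 38.8, 42.4, 43.0 and 42.3 CPM in wild-type and 33.9, 34.3, 32.3 and 33.3 CPM in AE3-null replicates 1 to 4. The genotypes were well apart, and Ostm1 fell by 0.32 on the log2 scale (SE 0.051, edgeR adjusted p 0.00149). Of its exon bases 6.44% are shared with an annotated antisense gene. Clcn7 itself had a log2 fold change of -0.01. None of the 4 tested LRRC8 partner genes was called, and Lrrc8c was the nearest (log2 -0.21, SE 0.066, edgeR adjusted p 0.0725). The tonicity-responsive transcription factor gene Nfat5 was not called (log2 0.04, edgeR adjusted p 0.684).

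Clic5 (Entrez 224796), a CLIC family gene, lay at 599, 616, 528 and 657 CPM in wild-type and 488, 523, 517 and 456 CPM in AE3-null replicates 1 to 4. The lowest wild-type library, replicate 3, was just above the highest AE3-null library. Clic5 fell by 0.28 on the log2 scale (SE 0.065, edgeR adjusted p 0.0328). Its adjusted p was 0.0752, 0.0898 and 0.0614 without wild-type replicate 1, 2 or 4 and 0.0889, 0.0522 and 0.0698 without AE3-null replicate 1, 3 or 4. Without wild-type replicate 3 Clic5 was at log2 -0.33 (adjusted p 0.000273).

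**Figure D5:**
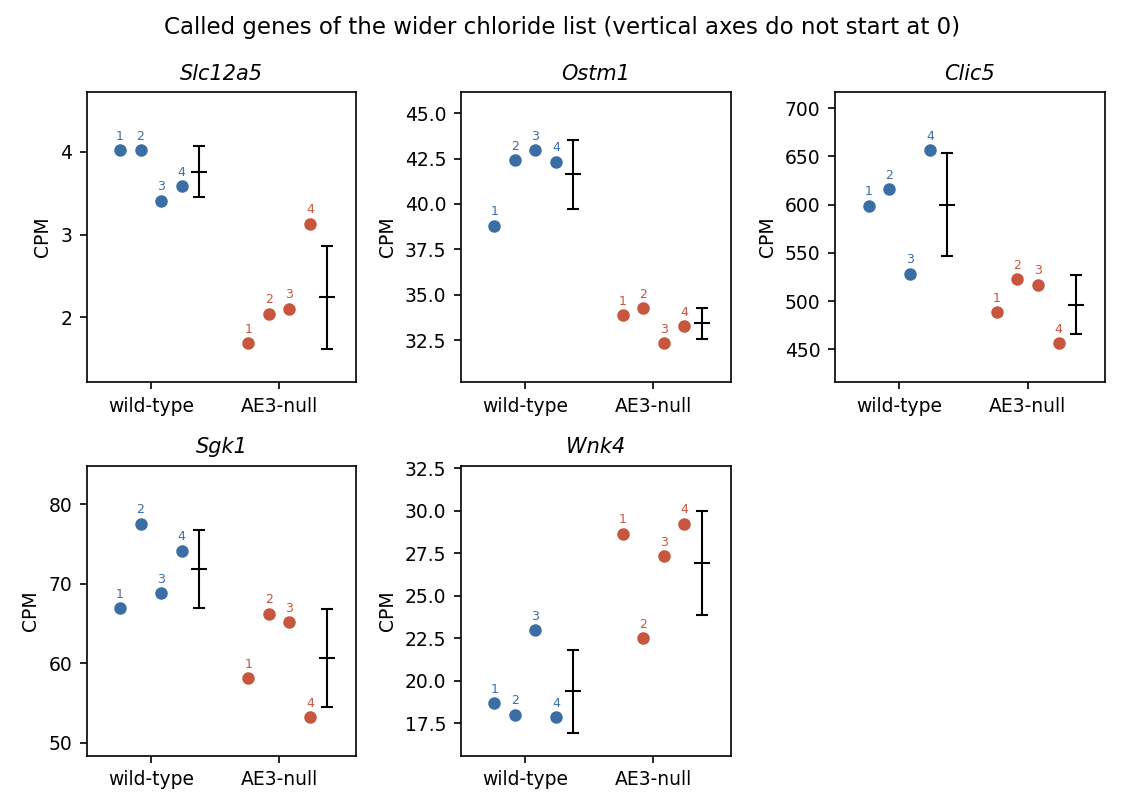
CPM in each library of the 5 called genes of the wider chloride list, with the replicate number above each point and the mean ± SD of 4 libraries as a bar; vertical axes differ and do not start at 0. Genotypes were separate for Slc12a5, Ostm1, Clic5 and Sgk1, and wild-type replicate 3 of Wnk4, at 23.0 CPM, lay above AE3-null replicate 2, at 22.5 CPM.

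In whole hearts, fewer cells of a type and less RNA per cell cannot be told apart. All 8 endothelial markers were lower in AE3-null hearts and 4 of them were called; they summed to 1483 to 1632 CPM in wild-type libraries and 1280 to 1354 CPM in AE3-null ones. All 5 atrial muscle markers were called higher, with sums of 2827 to 3364 and 3774 to 4370 CPM. Smooth muscle and pericyte markers summed to 1271 to 1319 and 1372 to 1483 CPM, with 2 of 6 called higher. Red blood cell markers summed to 2412 to 3839 and 1672 to 2320 CPM, with none of 3 called by edgeR. Fibroblast markers summed to 1144 to 1298 and 1246 to 1277 CPM (1 of 6 called lower), and macrophage markers to 263 to 298 and 258 to 299 CPM (none of 6 called). No marker of these lists was at 0 in every library. The part of these shifts in the values of the members, of Slc12a5, of Clic5 or of Wnk4 was not tested.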

How the data were processed

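The values are read counts per Entrez gene as deposited by the authors, 1 column per library and not normalized. The submitters' processing notes name bcl2fastq, CASAVA 1.8, TopHat, build mm9 and DESeq. Which program counted the reads, and with which strand setting, is not given in the sources used here. Of 23282 genes, 23185 were matched to symbols in a RefSeq table of GRCm38.p6. Exon lengths and overlaps came from GENCODE M21 (GRCm38), another build than the counts', so they are approximate.

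Genotypes were compared with edgeR 4.0.16 (filterByExpr with a minimum count of 10, TMM factors, robust quasi-likelihood F test, no covariates) in R 4.3.3, and 14136 genes were tested. CPM use TMM-scaled library sizes. The F statistic of each gene gave its standard error and 95% interval. Intervals and counting errors cover counting and library spread only. Alternatives used limma 3.58.1 and DESeq2 1.42.0, among others. The steps were also run on simulated data, whose outcome is not given here and is not used as support.

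Named were Slc4a3, all members, called genes of the wider list (or the smallest p of a class), and the 3 genes most like the member with the smallest p; Best3, Clcn1, Wnk2, Cab39, Clcn7 and the LRRC8 partners were named after their values were seen. A further gene of the wider list, included in its counts, is not reported here. The members and lists were chosen with earlier results of these data known. No library was a copy of another: the mean chi-square per gene between libraries of a genotype was 2.59 to 7.75.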

Additional observations from a re-analysis of the deposited data

Results flagged for a closer look

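A total of 3 values stood far from the other libraries of their genotype, in 40 groups of 4 libraries examined (20 genes in 2 genotypes); chance alone gives about 1 in 20 groups. Oxsr1 in wild-type replicate 1 lay at 97.3 CPM, against 100.6 to 101.1 CPM in the other wild-type libraries, where counting alone gives a coefficient of variation of 2.50%. Wnk4 in wild-type replicate 3 lay at 23.0 CPM, against 17.9 to 18.7 CPM in the others. Ostm1 in wild-type replicate 1 lay at 38.8 CPM, against 42.3 to 43.0 CPM. The calls of Wnk4 and Ostm1 held without each of these libraries.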

How the results depend on the processing

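The count of 0 called members was the same in all 17 alternatives (other size factors, filters, tools, threshold, the block and each library left out), and no member's fold change changed sign in the 16 of these that refit the data. For all genes the main count was 915, with 407 to 1727 calls when single libraries were left out and 1546 at an adjusted p under 0.1. Scaling by total counts gave 528 higher and 361 lower genes, against 447 and 468. The wider list had 5 calls, and 2 to 8 with single libraries left out. In the fit with the replicate number as a block, 1002 genes and 5 of the wider list were called, Clic5 was no longer called (adjusted p 0.0692) and Clcn1 was. The numbers did not pair the libraries: only 1 of 4 same-numbered pairs had a correlation of deviations over 0.1, and 2 of 8 libraries correlated best with their own number. Clic5 was also lost with no filter (adjusted p 0.0550), and Sgk1 with a minimum count of 50 (0.0530) and without robust moderation (0.0579). Depth limits the low genes: Clcn2 had 50 to 200 counts per library, and the called gene Slc12a5 had 19 to 85.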
